A study of Mus musculus with 17 samples.

Results

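The hyaluronan synthases and matrix proteases described here are 9 genes that build, cut or protect the matrix around cells. They are the synthases Has1 and Has2, the proteoglycan-cutting proteases Adamts1, Adamts4 and Adamts5, the membrane-bound metalloprotease Mmp14, the plasminogen activator Plat, and the metalloprotease inhibitors Timp1 and Timp3. Each was identified by the array probes that the platform annotation gives its symbol, and the brightest of them, by its mean over the 17 arrays, represented the gene. Probes were found for 8 of the 9 genes, 17 probes in all, and these 8 genes were among the 14737 genes that passed the filter on dim probes. Adamts5 was not analysed here.

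Total RNA of whole uterus was measured on 17 Illumina bead arrays, 9 from wild-type mice (WT) and 8 from mice lacking Egr1 (KO), where WT and KO stand for the genotype that the labels name. Mice had received estradiol (E2), the main ovarian estrogen, 3, 6 or 24 h earlier, or were taken at 0 h. WT 3 h has 3 arrays and each of the other 7 groups has 2. No group at 3, 6 or 24 h went without E2, so an effect of E2 cannot be told apart from one of handling or time of day. The study asks how the uterine response to E2 differs without EGR1, a zinc-finger transcription factor that many stimuli induce within minutes to hours. The mouse strain and age, the knockout allele and the tissues in which it acts, the E2 dose and vehicle, any ovariectomy, and whether a sample is 1 animal or a pool are not stated in the sources used here. Since no label tells whether replicates are separate animals, each p-value reflects the scatter among these samples alone, and that scatter may be technical.

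Values are log2 intensities that had been quantile normalized between arrays, so every level is relative to the other probes of the same array, and levels of different genes are not compared. Arrays of a group correlated at 0.990 to 0.997 over all probes. The Egr1 probe was not lower in KO: it read 12.37 in WT and 13.55 in KO at 0 h (adjusted p = 0.00302 by limma, higher in KO), and 14.79 and 14.64 at 3 h. Where that probe lies relative to the disrupted part is not given, so it does not check the labels. Markers of uterus were present on the arrays (8 of 9 passed the filter, and Hoxa10 did not). Replicate 1 of WT 0 h resembled the 24 h arrays more than the other 0 h arrays did (mean r 0.974 against 0.950 to 0.952). Replicate 2 of KO 0 h stood above its partner in macrophage markers (10.54 against 9.66, mean log2 level) and granulocyte markers (9.31 against 8.25). Adipocyte markers differed between the replicates of KO 3 h (8.34 and 9.46) and of KO 6 h (8.29 and 9.63). In whole tissue, fewer cells of a type and less RNA per cell cannot be told apart.

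Hyaluronan is a long, unsulfated sugar polymer that synthases at the cell surface extrude into the matrix, where it holds water and binds proteoglycans such as versican. ADAMTS1 and ADAMTS4 cut versican and aggrecan. MMP14, anchored in the membrane, cuts collagen and activates the secreted protease MMP2. Tissue plasminogen activator, the product of Plat, turns plasminogen into plasmin, which cuts fibrin and other matrix proteins. TIMP1 is a soluble inhibitor of metalloproteases, whereas TIMP3 stays bound to the matrix and also blocks ADAMTS proteases. Estrogen is known to make the rodent uterus take up water and swell before its epithelium and stroma grow.

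RefSeq promoters were held for 5 of the 9 genes (GRCm38.p6, the 250 bases before the start of the gene, 5′ to 3′ on the gene's own strand). Those of Has1 and Adamts1 are shown because both genes rose after E2 and rose less in KO at 3 h, and that of Mmp14 because it went the other way. Capitals mark a cAMP response element in Has1, GC boxes and a TATA box in Adamts1, and, in Mmp14, adjacent GC boxes with an EGR site variant that overlaps both.
Has1, chr17:17855189-17855438, minus strand: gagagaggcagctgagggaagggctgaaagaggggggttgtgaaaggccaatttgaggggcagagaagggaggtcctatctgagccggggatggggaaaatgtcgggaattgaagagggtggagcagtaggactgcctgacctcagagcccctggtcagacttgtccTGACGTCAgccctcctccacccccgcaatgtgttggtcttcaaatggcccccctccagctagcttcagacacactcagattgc
Adamts1, chr16:85803114-85803363, minus strand: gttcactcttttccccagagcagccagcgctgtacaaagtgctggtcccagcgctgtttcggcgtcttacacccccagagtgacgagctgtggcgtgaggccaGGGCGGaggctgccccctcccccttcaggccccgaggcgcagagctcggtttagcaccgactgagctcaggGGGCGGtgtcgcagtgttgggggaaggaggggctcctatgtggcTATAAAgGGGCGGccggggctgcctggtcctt
Mmp14, chr14:54431348-54431597, plus strand: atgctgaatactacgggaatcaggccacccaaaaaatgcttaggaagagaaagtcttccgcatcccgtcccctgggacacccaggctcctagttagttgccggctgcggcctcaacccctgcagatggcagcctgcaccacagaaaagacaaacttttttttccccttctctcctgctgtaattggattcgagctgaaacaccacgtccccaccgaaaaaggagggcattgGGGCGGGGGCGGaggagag
Both strands were searched for 8 motifs. The cAMP response element TGACGTCA lies 83 to 76 bases before the start of Has1, and 1.55% of 32851 promoters of the same length hold it. Has1 also holds GGTCA, a single arm of the estrogen response element, 113 to 109 bases (minus strand) and 97 to 93 bases before the start; 35.2% of promoters hold it. In Adamts1 the GC box GGGCGG starts 147, 76 and 25 bases before the start (32.7% of promoters hold 1 or more), beside TATAAA at 32 to 27 bases (12.4%). In Mmp14 the EGR variant GCGGGGGCG lies 17 to 9 bases before the start and overlaps GC boxes at 19 to 14 and 13 to 8; 2.57% of promoters hold that variant. The whole estrogen response element, GGTCA and TGACC with 3 bases between them (0.0639% of promoters), the EGR site GCGTGGGCG (0.536%) and the AP-1 site TGANTCA (6.75%) have 0 matches in these windows of Has1, Adamts1, Mmp14, Timp1 and Timp3. Timp1 and Timp3 each hold a GC box on the minus strand, 8 to 3 and 15 to 10 bases before the start. A match is a string of letters and shows no binding. Adamts1 and Adamts5 lie side by side on chromosome 16, with 0 protein-coding genes between them.

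This group of genes moved early after E2. In WT at 3 h, Has1, Adamts1, Adamts4, Timp1 and Timp3 rose, and Has2, Mmp14 and Plat fell. In KO at 3 h, Has1, Adamts1 and Adamts4 rose, by less than in WT, Mmp14 and Plat fell, and Has2, Timp1 and Timp3 did not pass the test. By limma, with p-values adjusted over all 14737 genes and a threshold of 0.05, 8 of the 8 genes were called at 3 h in WT, where 46.7% of all genes were, and 5 of 8 in KO, where 40.4% were. The WT count was 6 without replicate 2 of WT 0 h, where Plat and Timp1 lost their call, and 7 without replicate 1, where Has2 did, and without replicate 2 of KO 0 h the KO count was 4. The median change of the 8 genes at 3 h was 0.67 (log2) in WT and 0.07 in KO, against -0.01 for all genes in each. Centring each array on 12 reference genes in place of the quantile scale shifted the median of all genes by -0.08 (WT 3 h), -0.60 (WT 6 h), -0.83 (WT 24 h), -0.22 (KO 3 h), -0.68 (KO 6 h) and -1.22 (KO 24 h); the changes given here are relative to the other genes of the array.

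**Figure D1:**
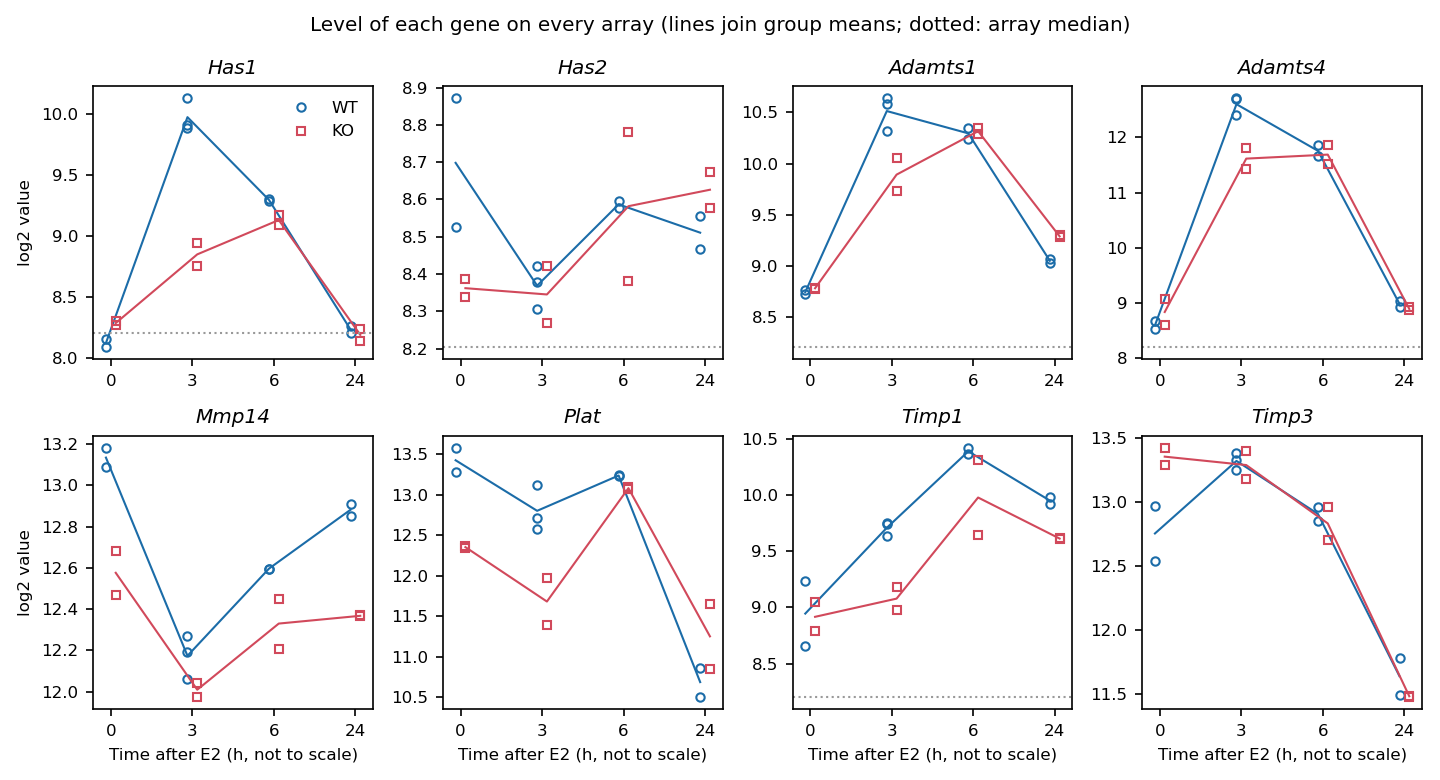
Log2 level of the brightest probe of each of the 8 genes on every array (points; lines join group means) by hours after E2 (times evenly spaced, not to scale), with WT as blue circles, KO as red squares and the array median as a dotted line where it falls in range. Adamts4 climbs from 8.59 to 12.60 in WT and from 8.84 to 11.62 in KO at 3 h, and all 4 of its 24 h arrays lie at 8.87 to 9.04.

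Has1, a hyaluronan synthase, peaked at 3 h in WT and later in KO. The WT arrays read 8.09 and 8.15 at 0 h, 10.12, 9.88 and 9.91 at 3 h, 9.29 and 9.30 at 6 h, and 8.26 and 8.20 at 24 h. The KO arrays read 8.30 and 8.27 at 0 h, 8.94 and 8.75 at 3 h, 9.17 and 9.08 at 6 h, and 8.23 and 8.14 at 24 h. All 3 WT 3 h arrays stood above every other array, the KO 3 h arrays lay below the WT and KO 6 h arrays, and at 24 h both genotypes were back within the range of the 0 h arrays. Both WT 0 h arrays lay below the array median of 8.20 and both KO 0 h arrays above it, so a floor in the deposited values, whose level is unknown, may compress the folds of this gene. The WT rise at 3 h was 1.85 ± 0.08 (log2, SE; 3.61-fold, adjusted p = 1.52e-09), against 0.56 in KO (1.48-fold, adjusted p = 8.97e-05). At 6 h the rise over 0 h was 1.17 in WT (2.26-fold, adjusted p = 1.58e-07) and 0.85 in KO (1.8-fold, adjusted p = 1.88e-06). Has1 fell from 3 h to 6 h in WT, by 0.68 (adjusted p = 4.35e-05). In KO it rose over the same step, by 0.28 (adjusted p = 0.0257). That KO step was 0.18 without replicate 2 of KO 3 h (adjusted p = 0.208) and 0.24 without replicate 1 of KO 6 h (0.158), and turned to -0.18 on the reference-gene scale. Centred on reference genes, the KO rise was 0.35 at 3 h (adjusted p = 0.146) and 0.16 at 6 h (0.377). In the order of levels, WT 3 h stood above WT 6 h, WT 6 h and KO 6 h did not differ beyond their spread (adjusted p = 0.476), KO 6 h stood above KO 3 h, KO 3 h above KO 0 h, and the 4 groups at 0 h and 24 h did not differ from one another in turn. The second Has1 probe lay at 7.85 to 8.13, not above the array median on any of the 17 arrays.

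Has2, the synthase that makes most hyaluronan in many embryonic and adult tissues, hardly moved. The WT arrays read 8.87 and 8.53 at 0 h, 8.38, 8.42 and 8.31 at 3 h, 8.60 and 8.58 at 6 h, and 8.47 and 8.56 at 24 h. The KO arrays read 8.39 and 8.34 at 0 h, 8.27 and 8.42 at 3 h, 8.78 and 8.38 at 6 h, and 8.58 and 8.67 at 24 h. Every array lay between 8.27 and 8.87, and no neighbours in the order of the 8 groups differed beyond their spread. The fall in WT at 3 h was 0.33 on the log2 scale (1.26-fold, adjusted p = 0.0233). It was -0.16 without replicate 1 of WT 0 h, the array that resembled the 24 h arrays (adjusted p = 0.329), and -0.30 without replicate 3 of WT 3 h (0.0709) or with replicate number as a block (0.0754). The interval for KO at 24 h against 0 h ran from 0.01 to 0.52 (adjusted p = 0.0924). That change was called higher under 6 of 26 settings, and on the reference-gene scale it was called lower. Between genotypes at 0 h, KO minus WT was -0.34 (adjusted p = 0.141).

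Adamts1 and Adamts4 rose together and early. By the size of its rise among all 14737 genes, Adamts4 ranked 3 in WT at 3 h, 21 in KO at 3 h, and 6 at 6 h in each genotype. Both genes had fallen again by 24 h.

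The WT arrays of Adamts4 read 8.52 and 8.66 at 0 h, 12.69, 12.41 and 12.71 at 3 h, 11.86 and 11.66 at 6 h, and 8.93 and 9.04 at 24 h. The KO arrays of Adamts4 read 9.07 and 8.60 at 0 h, 11.80 and 11.43 at 3 h, 11.51 and 11.86 at 6 h, and 8.92 and 8.87 at 24 h. Every 3 h and 6 h array stood more than 2 log2 units above every 0 h and 24 h array, and the WT 3 h arrays stood above all KO arrays. The change at 3 h was 4.01 ± 0.15 in WT (16.1-fold, 95% interval 3.69 to 4.33; adjusted p = 7.12e-10) and 2.78 ± 0.16 in KO (6.87-fold; 2.43 to 3.13; adjusted p = 3.93e-08). At 6 h it was 3.16 in WT (8.96-fold, adjusted p = 1.82e-08) and 2.85 in KO (7.22-fold, adjusted p = 3.72e-08). Adamts4 fell by 0.85 from 3 h to 6 h in WT (adjusted p = 9.99e-04), while the KO step was 0.07 (adjusted p = 0.807). From 6 h to 24 h it fell by 2.77 in WT and by 2.80 in KO (adjusted p = 8.72e-08 and 9.86e-08). At 24 h it was 0.39 above 0 h in WT (adjusted p = 0.0787) and 0.06 in KO (0.842). WT 3 h stood above WT 6 h, and WT 6 h, KO 6 h and KO 3 h did not differ from their neighbours in that order. This gene has 1 probe, so no second probe checks it.

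The WT arrays of Adamts1 read 8.76 and 8.72 at 0 h, 10.64, 10.32 and 10.59 at 3 h, 10.24 and 10.35 at 6 h, and 9.07 and 9.03 at 24 h. The KO arrays of Adamts1 read 8.79 and 8.77 at 0 h, 10.05 and 9.73 at 3 h, 10.29 and 10.34 at 6 h, and 9.28 and 9.30 at 24 h. The KO 3 h arrays lay below all WT arrays of 3 h and 6 h, the 6 h arrays of the genotypes overlapped, and the 24 h arrays stood above every 0 h array. Adamts1 rose by 1.77 ± 0.09 in WT at 3 h (3.42-fold, adjusted p = 7.81e-09) and by 1.11 ± 0.10 in KO (2.16-fold, adjusted p = 1.73e-06). At 6 h its rise was 1.55 in WT (2.94-fold, adjusted p = 9.61e-08) and 1.54 in KO (2.9-fold, adjusted p = 1.00e-07). The step from 3 h to 6 h was -0.22 in WT (adjusted p = 0.112) and 0.43 in KO (adjusted p = 0.00913), and the KO step was 0.27 without replicate 2 of KO 3 h (0.106) and -0.041 on the reference-gene scale. At 24 h it was 0.31 above 0 h in WT (adjusted p = 0.031) and 0.51 in KO (adjusted p = 9.8e-04). The WT 24 h call was lost without any single WT 0 h or WT 24 h array (adjusted p from 0.0667 to 0.138), and both 24 h values turned negative on the reference-gene scale (-0.52 and -0.71). The other Adamts1 probes above the median moved the same way by less: 1 rose by 0.99 in WT at 3 h (adjusted p = 4.52e-07) and by 0.52 in KO (4.03e-04), the other by 0.50 (0.00158) and by 0.35 (0.0304).

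Mmp14 went down as these genes went up, and recovered in part. The WT arrays read 13.09 and 13.18 at 0 h, 12.19, 12.06 and 12.27 at 3 h, 12.60 and 12.60 at 6 h, and 12.85 and 12.91 at 24 h. The KO arrays read 12.68 and 12.47 at 0 h, 11.98 and 12.04 at 3 h, 12.45 and 12.21 at 6 h, and 12.36 and 12.37 at 24 h. Each 3 h array lay below every 0 h array of its genotype, and KO arrays lay below WT arrays at every time. The fall at 3 h was by 0.96 on the log2 scale in WT (1.95-fold, adjusted p = 4.1e-07), and Mmp14 fell by 0.57 in KO (1.48-fold, adjusted p = 1.53e-04). At 6 h it was -0.54 in WT (adjusted p = 2.04e-04) and -0.25 in KO (adjusted p = 0.0374). At 24 h it was -0.25 in WT (adjusted p = 0.0385) and -0.21 in KO (0.0745). The WT step from 3 h to 6 h was 0.42 (adjusted p = 0.00183) and the KO step 0.32 (adjusted p = 0.019), but these steps were -0.094 and -0.15 on the reference-gene scale. The KO 6 h call was lost without replicate 1 of KO 0 h (-0.14; adjusted p = 0.334) or replicate 2 of KO 6 h (-0.13, adjusted p = 0.355), the KO step without replicate 1 of KO 3 h (0.29, adjusted p = 0.0886) or of KO 6 h (0.20, adjusted p = 0.21), and the WT 24 h call under 8 of the single-array omissions. Stromal fibroblast markers fell with Mmp14 at 3 h: in WT 8 of 8 were lower (median -1.14), with a mean list level of 10.88 to 11.12 against 11.87 to 12.31 at 0 h, and in KO 5 of 8 were lower (median -0.64), at 11.06 to 11.28 against 11.62 to 11.86. At 6 h that level was 10.82 to 10.93 in WT and 10.85 to 11.10 in KO, with a group mean below that of 3 h in each, while Mmp14 stood above its 3 h level. At 24 h it was 12.12 to 12.14 in WT and 11.95 to 12.13 in KO. Their part in the Mmp14 result was not tested. The second Mmp14 probe lay at 7.92 to 8.16, above the array median on 0 of 17 arrays.

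Plat had its largest change late. The WT arrays read 13.28 and 13.57 at 0 h, 12.57, 12.71 and 13.12 at 3 h, 13.23 and 13.25 at 6 h, and 10.51 and 10.87 at 24 h. The KO arrays read 12.37 and 12.34 at 0 h, 11.97 and 11.40 at 3 h, 13.10 and 13.07 at 6 h, and 11.66 and 10.85 at 24 h. The WT 24 h arrays lay more than 1 log2 unit below all other WT arrays; the KO 6 h arrays were the highest of KO, and the KO 24 h pair lay far apart. At 24 h Plat fell by 2.74 in WT (6.67-fold, 95% interval -3.26 to -2.22; adjusted p = 3.2e-06), rank 8 from the bottom of all genes, and fell by 1.10 in KO (2.15-fold, adjusted p = 0.00166). At 3 h it fell by 0.62 in WT (adjusted p = 0.0313) and by 0.67 in KO (adjusted p = 0.0389). At 6 h it stood 0.73 above 0 h in KO (1.66-fold, adjusted p = 0.0236) and -0.19 from it in WT (adjusted p = 0.591). From 3 h to 6 h Plat rose by 1.40 in KO (2.64-fold, adjusted p = 0.00101), against 0.44 in WT (0.177). The 3 h and KO 6 h calls of Plat were lost under several settings. At 3 h the adjusted p was 0.0606 in WT and 0.0736 in KO with an intensity trend and robust moderation, 0.106 and 0.0848 with array weights, and 0.0583 and 0.083 with title letter as a block. The WT 3 h value was -0.48 without replicate 2 of WT 0 h (adjusted p = 0.2), -0.51 without replicate 1 of WT 3 h (0.11) and -0.58 without its replicate 2 (0.0834). The KO 3 h value was -0.38 without replicate 2 of KO 3 h (0.305), -0.66 and -0.69 without replicate 1 or 2 of KO 0 h (0.124 and 0.111), and lost its call without replicate 2 of WT 3 h or either WT 6 h array (0.0503 to 0.0529). The KO 6 h value was 0.71 to 0.74 without any single KO 0 h or KO 6 h array (0.069 to 0.0866), 0.62 with cyclic loess (0.0519) and 0.04 on the reference-gene scale (0.852). Endothelial markers, genes of a cell type known to make tissue plasminogen activator, were lower at 24 h for 6 of 8 in each genotype, at a mean list level of 9.66 to 9.67 in WT (10.19 to 10.42 at 0 h) and 9.62 to 9.67 in KO (10.34 to 10.39 at 0 h). In WT that level was already 9.81 to 9.95 at 3 h and 9.76 to 9.81 at 6 h. In KO it was 9.78 to 9.97 at 3 h and 9.82 to 9.84 at 6 h. Plat at 6 h was not lower by the test in WT and was higher in KO. The part of these markers in the Plat result was not tested. The other Plat probes were above the array median on 0 and 9 of 17 arrays.

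The inhibitors Timp1 and Timp3 both rose in WT at 3 h and parted by 24 h. The WT arrays of Timp1 read 9.24 and 8.65 at 0 h, 9.74, 9.63 and 9.75 at 3 h, 10.36 and 10.42 at 6 h, and 9.92 and 9.98 at 24 h. The KO arrays of Timp1 read 8.79 and 9.05 at 0 h, 9.18 and 8.98 at 3 h, 10.31 and 9.65 at 6 h, and 9.61 and 9.62 at 24 h. All WT arrays after E2 stood above both WT 0 h arrays, whereas the KO 3 h arrays overlapped those of KO 0 h. Timp1 rose by 0.76 in WT at 3 h (1.7-fold, adjusted p = 0.00204), by 1.45 at 6 h (2.73-fold, adjusted p = 2.49e-05) and by 1.01 at 24 h (2.01-fold, adjusted p = 8.2e-04). In KO the change was 0.16 at 3 h (95% interval -0.24 to 0.57; adjusted p = 0.562), and Timp1 rose by 1.06 at 6 h (2.09-fold, adjusted p = 3.12e-04) and by 0.70 at 24 h (1.62-fold, adjusted p = 0.00719). The WT 3 h value was 0.47 without replicate 2 of WT 0 h (adjusted p = 0.0508), and the KO 24 h value was 0.57 without replicate 1 of KO 0 h (0.0708). On the reference-gene scale the 24 h values were 0.18 in WT (0.31) and -0.52 in KO. From 3 h to 6 h Timp1 rose by 0.68 in WT (adjusted p = 0.00978) and by 0.90 in KO (0.0036). Without replicate 1 of KO 6 h the KO step was 0.57 (0.0507), and without either WT 6 h array the WT step was 0.65 to 0.71 (0.0554 to 0.0793). The WT step also lost its call on the reference-gene scale. A second Timp1 probe gave 0.60, 1.46 and 0.98 in WT (adjusted p = 0.00862, 1.85e-05 and 7.9e-04) and 0.07, 1.16 and 0.74 in KO (0.823, 1.18e-04 and 0.00419) at 3, 6 and 24 h.

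The WT arrays of Timp3 read 12.54 and 12.97 at 0 h, 13.33, 13.38 and 13.25 at 3 h, 12.85 and 12.96 at 6 h, and 11.49 and 11.78 at 24 h. The KO arrays of Timp3 read 13.42 and 13.29 at 0 h, 13.18 and 13.40 at 3 h, 12.70 and 12.96 at 6 h, and 11.48 and 11.48 at 24 h. In both genotypes the 24 h arrays were the lowest, and the KO 0 h arrays overlapped those of WT 3 h. Timp3 rose by 0.57 in WT at 3 h (1.48-fold, adjusted p = 0.0014), while the KO value was -0.07 (0.761). At 6 h the WT value was 0.15 (adjusted p = 0.406), and Timp3 fell by 0.52 in KO (1.44-fold, adjusted p = 0.00488; -0.39 without replicate 1 of KO 6 h, 0.0614). At 24 h it fell by 1.11 in WT (2.17-fold, adjusted p = 2.73e-05) and by 1.87 in KO (3.66-fold, adjusted p = 3.15e-07). Another Timp3 probe, above the median on 17 of 17 arrays, moved less and differed in direction in KO at 3 h and 6 h: its values there were 0.31 (adjusted p = 6.98e-04) and 0.15 (0.063), beside 0.48 in WT at 3 h (5.34e-06), and at 24 h it was -0.17 in WT (0.0418) and -0.30 in KO (7.53e-04). Epithelial markers moved the opposite way at 24 h, with 8 of 8 higher in WT (median 0.97) and 5 higher and 1 lower of 8 in KO; their mean list level was 10.01 and 10.26 at 0 h and 11.16 and 11.23 at 24 h in WT, and in KO at most 10.06 at 0 h and 10.92 and 10.97 at 24 h. Their part in the Timp3 result was not tested.

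**Figure D2:**
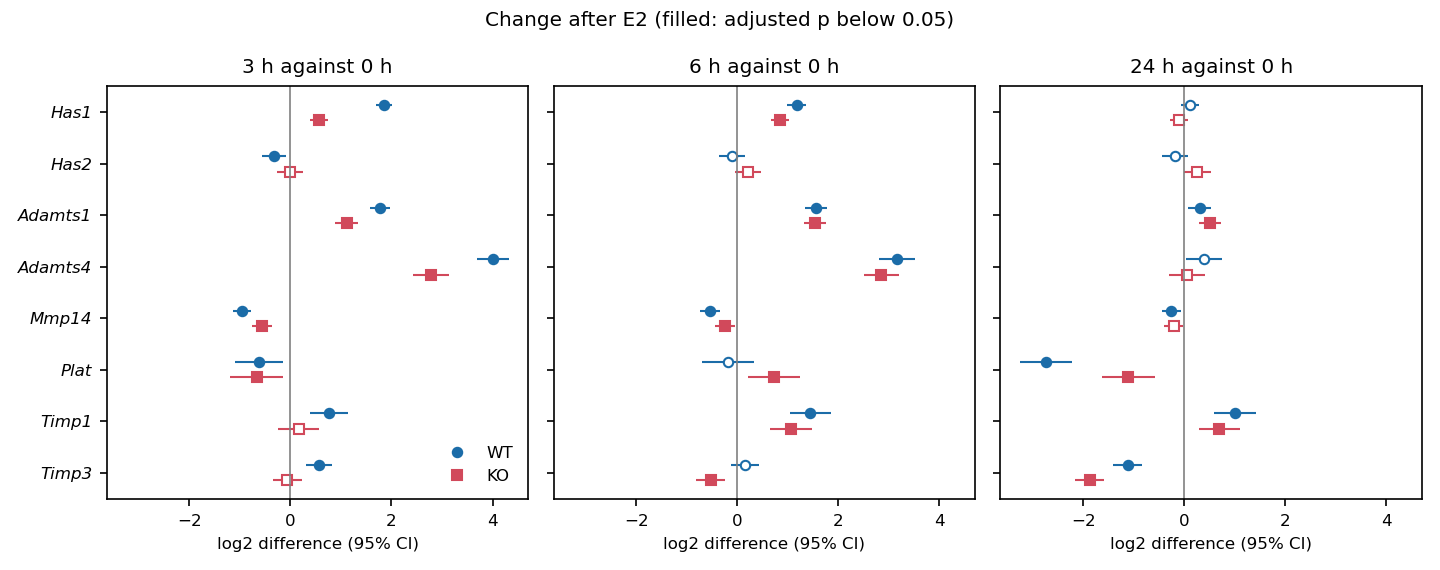
Log2 change from 0 h with its 95% interval for each of the 8 genes at 3, 6 and 24 h, with WT as blue circles, KO as red squares and filled symbols where the adjusted p is below 0.05. At 24 h Plat lies at -2.74 in WT and -1.10 in KO, and Timp3 at -1.11 and -1.87.

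At 6 h 5 of 8 genes were called in WT (44% of all genes) and 7 of 8 in KO (44.9%). At 24 h 5 of 8 were called in WT (37.9%) and 4 of 8 in KO (45.7%). The WT count at 24 h was 3 without replicate 2 of WT 0 h or either WT 24 h array. From 6 h to 24 h most of these genes went down: Has1, Adamts1, Adamts4, Plat and Timp3 fell in each genotype, 6 of 8 called in WT with Mmp14 higher (38.3% of all genes called) and 5 of 8 in KO (38.3%). The Mmp14 step in WT was 0.29 (adjusted p = 0.021) and lost its call without any single WT 6 h or WT 24 h array, and on the reference-gene scale. From 3 h to 6 h, 5 of 8 were called in WT (26%), with Has1, Adamts4 and Timp3 lower and Mmp14 and Timp1 higher. The Timp3 step in WT was -0.41 (adjusted p = 0.0217) and lost its call without replicate 1 or 2 of WT 3 h or either WT 6 h array (-0.47 to -0.36, adjusted p from 0.0533 to 0.156), and the WT count was 3 without either WT 6 h array. In KO 6 of 8 were called over the same step (23.3%), with Timp3 lower and Has1, Adamts1, Mmp14, Plat and Timp1 higher. The Timp3 step in KO was -0.46 (adjusted p = 0.0237), and -0.34 and -0.33 without replicate 2 of KO 3 h and replicate 1 of KO 6 h (0.165 and 0.2). That KO count was 2 without replicate 1 of KO 6 h and 3 without replicate 2 of KO 3 h.

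Between genotypes at 3 h, Has1, Adamts1, Adamts4 and Plat were lower in KO than in WT, and none of the 8 genes was called higher. Plat was already lower in KO at 0 h, by 1.07, so its difference is not particular to 3 h. Has1 was lower by 1.13 ± 0.08 (difference of -1.13; 2.18-fold, adjusted p = 1.43e-05), Adamts4 by 0.99 ± 0.15 (-0.99; 1.98-fold, adjusted p = 0.00317), Adamts1 by 0.62 ± 0.09 (-0.62; 1.54-fold, adjusted p = 0.00326) and Plat by 1.12 ± 0.22 (-1.12; 2.17-fold, adjusted p = 0.0127). Ranked from the lowest of all 14737 genes, Has1 was 15, Plat 16, Adamts4 21 and Adamts1 84. For each of these 4 genes every KO 3 h array lay below every WT 3 h array, as for 32.7% of all genes in either direction. So 4 of 8 genes were called at 3 h, where 4.23% of all genes were and 2.07% were called lower; the median over the 8 was -0.63 against -0.01 for all genes. Timp1 read -0.63 ± 0.17 (adjusted p = 0.0573), with no overlap, and its second probe -0.64 (0.0488). Under 6 of the 27 settings apart from other probes Timp1 was called lower, so its miss is a near one. Mmp14 at -0.16 (0.301), Has2 at -0.02 (0.944) and Timp3 at -0.03 (0.929) did not pass the test. The Plat difference was -0.83 without replicate 2 of KO 3 h (adjusted p = 0.151), -0.96 without replicate 3 of WT 3 h (0.052) and -0.96 with replicate number as a block (0.0622), and that of Adamts1 was -0.51 on the reference-gene scale (0.118). At 3 h, 0 of 8 stromal, 0 of 8 smooth muscle and 0 of 8 epithelial markers were called by limma between the genotypes (2, 2 and 0 at an unadjusted p below 0.05), and 1 of 8 endothelial markers was lower. The mean list level of macrophage markers was 9.24 and 9.79 in KO and 9.16 to 9.21 in WT. That of granulocyte markers was 8.19 and 8.20 in KO and 8.23 to 8.30 in WT. Replicate 2 of KO 3 h stood above its partner in macrophage, lymphocyte (8.92 against 8.47) and adipocyte markers (9.46 against 8.34). The part of these lists in the 3 h differences was not tested.

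At 0 h 3 of 8 genes were called (4.43% of all genes): Mmp14 was lower in KO by 0.56 (a difference of -0.56; 1.47-fold, adjusted p = 0.00367), Plat by 1.07 (-1.07; 2.1-fold, adjusted p = 0.0234), and Timp3 was higher by 0.60 (1.52-fold, adjusted p = 0.0215). These 0 h values lean on single arrays: the count was 0 without replicate 2 of KO 0 h, and 1 without its replicate 1 or replicate 1 of WT 0 h. Plat lost its call without any 0 h array (-1.22 to -0.92; adjusted p from 0.0593 to 0.132), and Timp3 was 0.53 and 0.67 without replicate 1 or 2 of KO 0 h (0.133 and 0.0783) and 0.39 without replicate 1 of WT 0 h (0.194). Mmp14 was -0.45 without replicate 2 of KO 0 h (0.0537) and -0.32 on the reference-gene scale (0.308). At 0 h 1 of 8 stromal markers was lower in KO and 1 of 7 macrophage markers higher (3 and 5 at an unadjusted p below 0.05). The mean list level of adipocyte markers at 0 h was 10.84 and 10.89 in KO and 9.81 and 10.32 in WT, with 0 of 6 called by limma and 4 at an unadjusted p below 0.05, and that of mesothelial markers was 8.94 and 9.12 in KO and 8.80 and 8.85 in WT, with 1 of 6 called higher. The part of these lists in the 0 h differences was not tested. At 6 h limma called 0 of 8 genes (0.631% of all genes), with Mmp14 and Timp1 at an unadjusted p below 0.05 and both called without replicate 1 of KO 6 h (-0.39, adjusted p = 0.0431, and -0.74, adjusted p = 0.0339). The 95% interval of the 6 h difference was -0.20 to 0.25 for Adamts1 and -0.68 to 0.36 for Plat. At 24 h 1 of 8 was called (8.35%): Mmp14 was lower in KO by 0.51 (-0.51; 1.43-fold, adjusted p = 0.0037). Plat at 24 h stood 0.56 higher in KO with overlapping arrays (adjusted p = 0.191), and 0.97 higher without replicate 2 of KO 24 h (adjusted p = 0.0491).

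**Figure D3:**
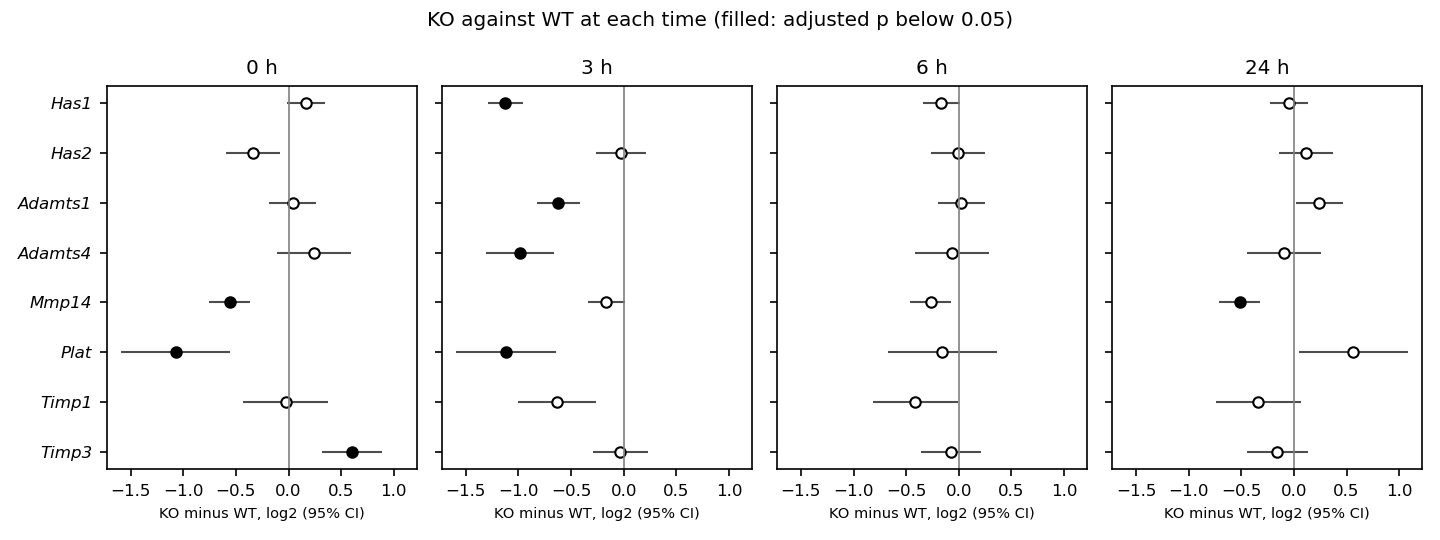
KO minus WT difference in log2 level with its 95% interval for each of the 8 genes at the 4 times; filled points passed an adjusted p of 0.05. Has1, Adamts4, Adamts1 and Plat lie below 0 at 3 h (-1.13, -0.99, -0.62 and -1.12), and at 6 h all 8 points are open.

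The interaction test asks whether the change from 0 h itself differed between genotypes, as the KO change minus the WT change. It shares arrays with the comparisons above and is not separate evidence. At 3 h it called 3 of 8 genes (1.09% of all genes, 0.489% with a lower value in KO), all 3 with a smaller rise in KO: Has1 at -1.29 ± 0.11 (95% interval -1.53 to -1.04; adjusted p = 1.24e-04), Adamts4 at -1.23 ± 0.22 (-1.71 to -0.75; adjusted p = 0.0229) and Adamts1 at -0.66 ± 0.14 (-0.96 to -0.36; adjusted p = 0.042). As a ratio of fold changes, the WT rise was 2.34 times the KO rise for Adamts4 and 1.58 times for Adamts1. For Has1 the measured ratio was 2.44, with the WT 0 h arrays below the array median. The count was 1 without any of 4 arrays, namely replicate 1 of KO 0 h, replicate 2 of KO 3 h, replicate 1 of WT 0 h and replicate 1 of WT 3 h. The Has1 difference kept its call when any single array was left out (-1.39 to -1.19; adjusted p up to 0.00126). That of Adamts4 lost it without replicate 1 of KO 0 h (-0.99, adjusted p = 0.0531), replicate 2 of KO 3 h (-1.04, adjusted p = 0.0692), replicate 1 of WT 0 h (-1.16, adjusted p = 0.0649) or replicate 1 of WT 3 h (-1.18, adjusted p = 0.0536). That of Adamts1 lost it under 12 of the 17 omissions and ranged from -0.82 to -0.50, the smallest without replicate 2 of KO 3 h (0.117); its 2 other probes above the median gave -0.46 (0.103) and -0.15 (0.743). Plat, whose KO level was already lower at 0 h, had an interaction of -0.05 at 3 h (adjusted p = 0.97). Timp1 at -0.60 (0.313) and Timp3 at -0.63 (0.117) did not pass the test at 3 h, and Timp3 did without replicate 2 of WT 0 h (-0.85; adjusted p = 0.0154).

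At 6 h limma called 0 of 8 genes for the interaction (0.4% of all genes), while Has1, Mmp14, Plat and Timp3 had an unadjusted p below 0.05; without replicate 2 of WT 0 h Timp3 was called (-0.89; adjusted p = 0.0161). The Has1 value was -0.33 (95% interval -0.58 to -0.07; adjusted p = 0.312). The KO step minus the WT step from 3 h to 6 h, a comparison chosen after the data were seen, was 0.96 for Has1 (95% interval 0.72 to 1.20; adjusted p = 0.00998), the only 1 of the 8 called (0.149% of all genes). It was 0.95 without replicate 1 of WT 6 h (0.0762). For Adamts4 the same step difference was 0.92 (0.44 to 1.40; adjusted p = 0.115) and for Adamts1 0.64 (0.34 to 0.95; 0.0878). Single omissions brought Adamts4 to 1.10 (0.0439, without replicate 1 of KO 3 h) and Adamts1 to 0.80 (0.0166, the same array) or 0.74 (0.0408, without replicate 2 of WT 3 h). At 24 h 2 of 8 were called (7.27%): Plat at 1.64 ± 0.34 (95% interval 0.90 to 2.37; adjusted p = 0.0141), a smaller fall in KO, and Timp3 at -0.76 ± 0.19 (-1.16 to -0.35; adjusted p = 0.0292), a larger fall in KO. Both values rest in part on the 0 h groups. For Plat, KO minus WT was -1.07 at 0 h and 0.56 at 24 h (adjusted p = 0.191 by limma). For Timp3 it was 0.60 at 0 h and -0.16 at 24 h (0.604). Neither gene was called between the genotypes at 24 h, and the 0 h differences lean on single arrays. The mean list level of macrophage markers went from 9.36 to 9.26 in WT and from 10.10 to 8.99 in KO. Their interaction was called lower for 1 of 7, and 6 had an unadjusted p below 0.05. The KO 0 h macrophage mean rests on arrays at 9.66 and 10.54. The adipocyte level went from 10.07 to 8.49 in WT and from 10.86 to 8.55 in KO (0 of 6 called by limma, and 1 unadjusted). Both lists fell more in KO, as Timp3 did, whereas Plat fell less in KO. Of 8 epithelial markers 3 were called lower for the interaction. The part of these lists was not tested. Plat ranked 12 from the top of all genes there, and was 1.46 without replicate 1 of WT 24 h (0.0612). Timp3 lost its call without either KO 0 h array (-0.69 and -0.82, adjusted p = 0.085 and 0.06), either KO 24 h array (-0.75 and -0.76, adjusted p = 0.0807 and 0.0882), replicate 1 of WT 0 h (-0.54, adjusted p = 0.102) or replicate 2 of WT 24 h (-0.61, adjusted p = 0.126). The other Timp3 probe above the median on all arrays gave -0.14 at 24 h (0.385). Over the 3 times jointly, limma's F-test called 4 of 8 genes (6.83% of all genes): Has1 (adjusted p = 2.87e-04), Adamts1 (0.0105), Adamts4 (0.0183) and Plat (0.0192).

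Across the 8 group means the genes fell into like and unlike patterns, given here as Pearson correlations over groups that share arrays and normalization, with no test. Adamts1 and Adamts4 had r = 0.968, Has1 and Adamts4 0.949, and Has1 and Adamts1 0.929. Mmp14 ran against Adamts4 (-0.691) and Adamts1 (-0.674), and Plat with Timp3 (0.639). The genes most like Adamts4 among all 14737 were Usp16 (0.996), Btbd1 (0.996) and Timm29 (0.995), and those most like Adamts1 were Sap30bp (0.995), Dhh (0.994) and Rabggtb (0.993). Has1 was most like Pogz (0.979), Heyl (0.976) and Eloa (0.975). Mmp14 was most like Dnajc10 (0.984), Snx10 (0.975) and Usp22 (0.973), and Plat like Abhd10 (0.963), Tfr2 (0.949) and Tbx3 (0.948). Timp1 was most like Ostm1 (0.977), Ttc13 (0.976) and Zmat3 (0.972), and Timp3 like Zfp263 (0.995), Prpf39 (0.991) and Cnot3 (0.991). For Has2, which spans the narrowest range, they were 1700021F07Rik (0.970), Grb10 (0.951) and Exosc7 (0.930). A correlation ignores the size of a change, and some of these genes hardly moved. Over the group means 1700021F07Rik spans 0.10, Tfr2 0.18 and Abhd10 0.32 on the log2 scale.

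Around the synthases, 19 of 27 listed genes of hyaluronan synthesis, binding and breakdown were measured, Has1 and Has2 included. In WT at 3 h 6 were higher and 4 lower (46.7% of all genes called), and in KO 4 were higher and 2 lower (40.4%), shares near or below those of all genes. Hapln4, a link protein that ties hyaluronan to proteoglycans, rose by 1.19 in WT and by 0.90 in KO at 3 h; Lyve1, a hyaluronan receptor of lymphatic endothelium, rose by 0.78 in WT; and Cd44, the main hyaluronan receptor, fell by 0.75 in WT. At 24 h Stab1, a scavenger receptor for hyaluronan, fell by 0.81 in WT and by 1.04 in KO. In WT at that time Cemip, a hyaluronan-degrading factor, fell by 1.34, and Hyal1, a lysosomal hyaluronidase, fell by 0.53. Lyve1 and Cd44 at 3 h, and Stab1 and Hyal1 at 24 h, were not called for the interaction. Cemip was called for the interaction at 3, 6 and 24 h, with the KO change above the WT change (0.78, 0.96 and 0.97, adjusted p = 0.0485, 0.0378 and 0.00789). These 3 values all subtract the same 0 h arrays, so they are not separate results. Vcan, the versican that hyaluronan binds and ADAMTS1 and ADAMTS4 cut, was not called at 3 h or 6 h and rose at 24 h, by 0.28 in WT (adjusted p = 0.00757) and by 0.54 in KO (3.08e-05). Both rises are smaller than the shift of all genes on the reference-gene scale at 24 h (-0.83 and -1.22).

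Of the ADAMTS and ADAMTS-like genes 20 of 25 were measured; at 3 h 4 were higher and 7 lower in WT (46.7% of all genes called), with the same counts in KO (40.4%). Besides Adamts1 and Adamts4, Adamts9, which also cuts versican, rose by 1.70 in WT (adjusted p = 5.92e-08) and by 1.75 in KO (1.86e-07). Adamts12 fell by 1.58 and by 1.26, and Adamts19 fell by 1.33 and by 1.16. For the 3 h interaction Adamts1 and Adamts4 were called, and 0 of the 18 others were, where 1.09% of all genes were. Of the matrix metalloproteases 16 of 22 were measured; in WT at 3 h 1 was higher and 9 lower (46.7% of all genes called), and in KO 1 was higher and 7 lower (40.4%). The gene that rose was Mmp17, by 1.66 and by 1.16, while Mmp11 fell by 1.84 and by 1.27, and Mmp2, which MMP14 activates, fell by 1.09 in WT at 6 h. Mmp2 was not called for the interaction at 6 h.

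Around Plat, 8 of 16 listed genes of plasminogen activation were measured, and at 3 h 2 were higher and 3 lower in each genotype (46.7% of all genes called in WT and 40.4% in KO). Plaur, the receptor of the other plasminogen activator, urokinase, rose by 0.66 in WT and by 0.47 in KO. Plgrkt, a plasminogen receptor, fell by 1.08 and by 0.98, and S100a10, which forms a plasminogen-binding complex with annexin A2, fell by 0.68 and by 0.46. Plat was the 1 gene of this list called for the interaction at 24 h. Of a list of metalloprotease inhibitors and related genes, Bsg and Lrp1 among the latter, 10 of 11 were measured. At 3 h 2 were higher (Timp1 and Timp3) and 2 lower in WT (46.7% of all genes called), and 0 higher and 2 lower in KO (40.4%). The 2 that fell in both were Reck, a membrane-bound inhibitor of metalloproteases, by 0.50 and by 0.32, and Timp2, by 0.37 and by 0.43. At 6 h Timp2 fell by 1.20 in WT and by 1.08 in KO, and Reck fell by 0.97 and by 1.08.

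**Figure D4:**
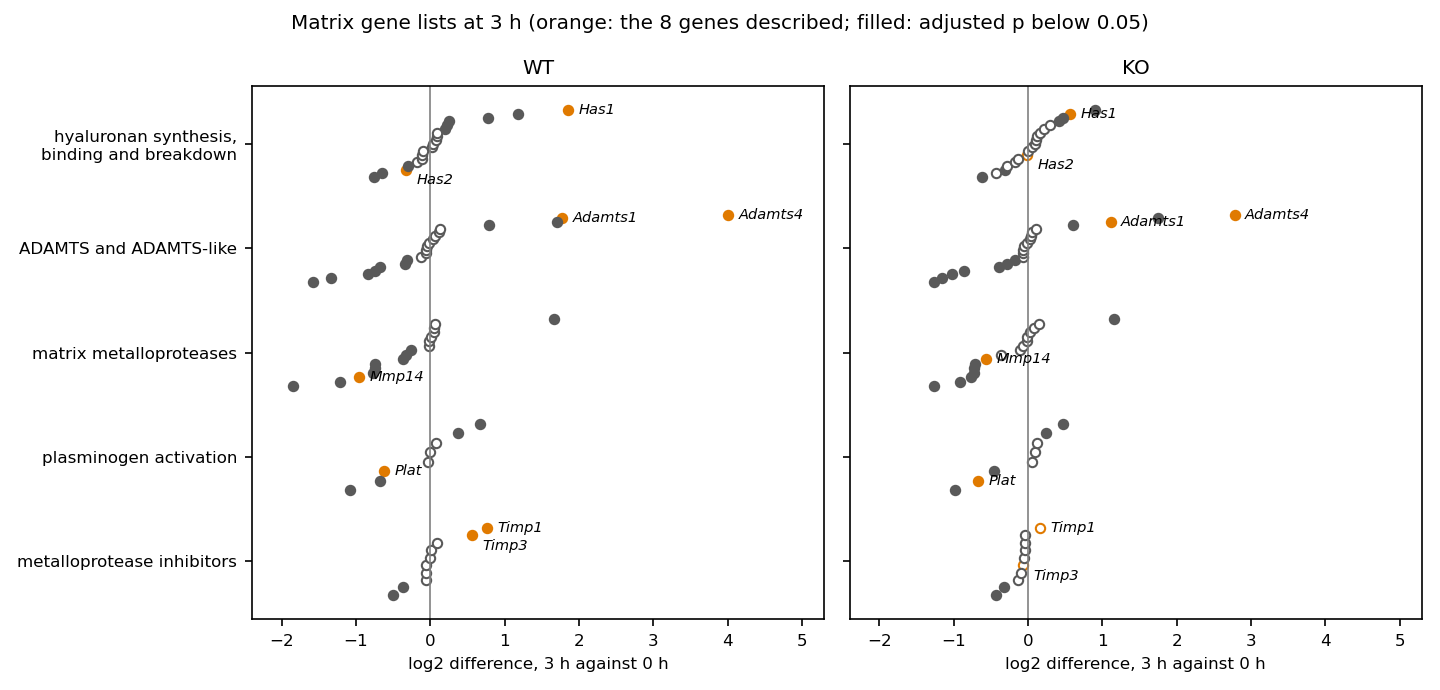
Log2 difference between 3 h and 0 h in WT (left) and KO (right) for each measured gene of 5 matrix lists; orange marks the genes described here, filled points an adjusted p below 0.05, and height within a row is for legibility only. Adamts4 lies furthest right in both panels (4.01 and 2.78), and Mmp11 furthest left in WT (-1.84).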

How the data were processed

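Per the submitters' processing notes, BeadStudio, with no version named, was used to read the scanner. The deposited values are log2 intensities, and all 17 deposited columns share the same quantiles (median 8.20, range 7.39 to 15.94), which shows quantile normalization between arrays; how background was corrected, what offset preceded the log and which software normalized the values goes unstated in the sources used here, and a floor set by them can compress dim probes such as those of Has1 and Has2. Of 45281 probes, 34885 had 1 gene symbol in the platform annotation; 18 had several or none and 10378 were not listed. Symbols were checked against RefSeq through Entrez numbers (34807 matched, 0 changed). A probe was kept if it exceeded its array's median on 2 or more arrays, and the brightest stood for its gene, leaving 14737 genes.

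Means of the 8 groups were fitted with limma 3.58.1 in R 4.3.3 (lmFit, contrasts.fit, eBayes without trend), with two-sided tests and Benjamini-Hochberg adjustment over all genes kept, threshold 0.05; every adjusted p is from limma. The fit was tested on simulated data. Groups and replicate numbers came from the labels. Of each of 5 pathway lists, counts were given and up to 3 other genes with the largest called change in a comparison with 0 h or an interaction were named, of which the text gives a part; for each member the 3 genes with the highest correlation over group means were named. Members, lists and rules were chosen with earlier results of these data known. Alternatives were the probe filter, each other probe, an intensity trend, only the compared groups, centring on reference genes or on the mean, cyclic loess, array weights, blocks by replicate number or title letter, and leaving out each array; the KO step minus the WT step was added after seeing the data. Scanner files and detection calls were not used. The number of arrays limits the precision.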

Additional observations from a re-analysis of the deposited data

Results flagged for a closer look

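The change from 0 h differed between KO and WT, by the interaction test of limma, for 5 pairs of a gene and a time. At 3 h the KO change minus the WT change was -1.29 for Has1 (adjusted p = 1.24e-04), -1.23 for Adamts4 (0.0229) and -0.66 for Adamts1 (0.042). At 24 h it was 1.64 for Plat (0.0141) and -0.76 for Timp3 (0.0292). Their spread between arrays and the arrays they rest on stand with the results above. No group holds 4 or more arrays, so single arrays were not tested against their group.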

How the results depend on the processing

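Over 27 settings apart from other probes, 37 of the 70 calls of a gene in a comparison held under each, and 47 of the 74 values without a call never gained one. On the reference-gene scale, whose shift of all genes is given above, the sign turned in WT for Timp3 at 6 h (-0.45), Has1, Adamts1 and Adamts4 at 24 h (-0.72, -0.52 and -0.44) and Mmp14 from 3 h to 6 h (-0.094). In KO it turned for Has2 at 6 h and 24 h (-0.46 and -0.96), Adamts1, Adamts4 and Timp1 at 24 h (-0.71, -1.17 and -0.52), Has1, Adamts1 and Mmp14 from 3 h to 6 h (-0.18, -0.041 and -0.15), and Has2 and Mmp14 from 6 h to 24 h (-0.50 each). A turn of sign between values that both missed the threshold is not listed, here or for the other probes below. The centring itself shifts every gene alike. Called counts on that scale were 8 for WT 6 h, 8 for KO 24 h, 3 for the KO step from 3 h to 6 h, 8 for KO from 6 h to 24 h and 0 for the added step difference.

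Other probes, many of them dim, turned the sign as follows. The second Has1 probe gave -0.027 and -0.031 in WT at 3 and 6 h, 0.038 from 6 h to 24 h, -0.022 and -0.015 in KO at 3 and 6 h, 0.088 from 6 h to 24 h, and 0.0056 for the interaction at 3 h. The second Mmp14 probe gave 0.047 and 0.11 in WT at 3 and 24 h, -0.052 and -0.11 from 3 h to 6 h in WT and KO, and 0.14 and 0.017 between genotypes at 0 and 24 h. The Plat probe above the median on 9 arrays gave 0.17 in KO at 3 h, -0.094 in KO from 3 h to 6 h and 0.0098 between genotypes at 3 h. The Plat probe above it on 0 arrays gave -0.078 in KO at 6 h, -0.067 and 0.011 for the KO steps from 3 h to 6 h and 6 h to 24 h, and 0.030 and 0.087 between genotypes at 0 and 3 h. The dimmer Timp3 probe gave -0.038 in WT at 3 h, 0.084 in WT from 3 h to 6 h, 0.038 in KO at 6 h, 0.036 in KO from 3 h to 6 h and 0.038 for the interaction at 24 h, and the brighter one gave 0.31 and 0.15 in KO at 3 and 6 h. The dimmest Adamts1 probe gave -0.057 in WT at 24 h and -0.046 in KO from 3 h to 6 h. With such probes the count was 0 between genotypes at 24 h (Mmp14), 0 for the step difference (Has1) and 1 for the interaction at 24 h (each other probe of Plat and Timp3). The cause was not tested.

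With only the compared groups fitted, which leaves fewer arrays, 1 gene was called for the KO step from 3 h to 6 h, 0 and 3 between genotypes at 0 and 24 h, and 1 and 1 for the interaction at 3 and 24 h. Array weights gave 3 for that KO step, 4 between genotypes at 24 h and 1 for the interaction at 3 h. Whether replicate numbers pair the samples could not be settled: deviations of same-numbered arrays correlated at -0.195 to 0.305 over 56 pairs (11 over 0.1), and those with the same title letter at -0.278 to 0.305 over 50 (9 over 0.1). In a group of 2 arrays the deviations mirror each other, so many of these values are repeats and the check is weak. With title letter as a block the count for the KO step from 3 h to 6 h was 3, and the Adamts1 interaction at 3 h was -0.64 (adjusted p = 0.0703); with replicate number as a block it was -0.62 (0.0764). Leaving out 1 array gave 6 to 8 calls for WT 3 h, 3 to 6 for WT 24 h, 5 to 7 for WT from 6 h to 24 h, 4 to 5 for KO 3 h, 5 to 7 for KO 6 h, 3 to 6 for KO 24 h, 2 to 7 for KO from 3 h to 6 h, 5 to 6 for KO from 6 h to 24 h, 0 to 3, 3 to 5, 0 to 2 and 1 to 2 between genotypes at 0, 3, 6 and 24 h, 1 to 4, 0 to 1 and 1 to 3 for the interaction at 3, 6 and 24 h, 0 to 3 for the step difference and 3 to 6 for the joint test.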
